A study of Mus musculus with 6 samples.

Results

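GC-rich promoters of protein-coding genes were examined in ATAC-seq peak lists of white preadipocytes. Peak intervals of all 6 libraries were merged on chromosomes 1 to 19. A merged region was kept when at least 2 libraries held a summit with a −log10 q over 2 in it, which left 174449 of 262759 regions. A kept region was a member when it overlapped the 1 kb on either side of an annotated transcription start site (TSS) of a protein-coding gene and when G and C made up 60% or more of the bases within 250 bp of its best summit, the one with the highest −log10 p. This gave 9750 members, which is 5.59% of the kept regions and 41.9% of the 23278 promoter regions. The other classes were 13528 GC-poor promoters, 1995 GC-rich regions away from protein-coding TSSs and 149176 GC-poor regions away from them. The rule used sequence, position and the presence of a peak, and not the difference between genotypes.

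The cells were undifferentiated preadipocytes (day 0) from the inguinal white fat of adult C57BL/6 mice, the pad under the skin of the groin, grown on collagen. Libraries came from 3 wild type (WT) and 3 DKO cultures. DKO mice carry Hmgn1-/- and Hmgn2-/- in all tissues and so lack both major HMGN proteins, which bind nucleosomes and loosen chromatin. Whether cultures came from separate mice is not given in the sources used here, so p-values measure the spread between these cultures, which may be technical. In ATAC-seq the transposase Tn5 cuts open DNA and inserts adapters there. The height of a summit is its fold enrichment, the pileup there over the local background of the same library as the authors' peak caller gave it.

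Most promoters of housekeeping genes, and those of many developmental regulators, lie in CpG islands, stretches rich in G, C and the dinucleotide CpG that mostly stay free of DNA methylation. Such promoters mostly lack a TATA box, start transcription at several positions and are bound by factors such as SP1, NRF1, NFY and ETS proteins. They tend to be open in most cell types. CpG island promoters of developmental genes are often held by Polycomb complexes in cells that do not use them.

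Sequence was read from the genome (GRCm38.p6, the mm10 build of the lists) for members that the results turn on. Shown are up to 150 bases outside annotated exons, nearest to the best summit and written in the direction of the gene, with each CpG in capitals. Hmgn2, Coq2, Prex1 and Mctp2 had the smallest p among members lower in DKO cells, Vps4a, C1qtnf12, Rap1gds1 and Dclk2 were among those with the smallest p on the higher side, and Cenpf and Cdkn3 were among the tallest.
Hmgn2 (chr4:133968167-133968316, minus strand): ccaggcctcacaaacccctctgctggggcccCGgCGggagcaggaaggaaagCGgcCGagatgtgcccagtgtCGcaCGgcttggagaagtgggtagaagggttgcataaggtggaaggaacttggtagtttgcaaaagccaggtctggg
Coq2 (chr5:100673790-100673939, minus strand): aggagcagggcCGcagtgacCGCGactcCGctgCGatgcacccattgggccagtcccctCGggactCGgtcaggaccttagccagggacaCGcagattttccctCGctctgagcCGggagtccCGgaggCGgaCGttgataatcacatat
Prex1 (chr2:166713919-166714068, minus strand): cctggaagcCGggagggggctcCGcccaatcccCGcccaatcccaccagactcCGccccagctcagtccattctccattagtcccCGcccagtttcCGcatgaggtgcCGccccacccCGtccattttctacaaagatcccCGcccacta
Mctp2 (chr7:72306609-72306758, minus strand): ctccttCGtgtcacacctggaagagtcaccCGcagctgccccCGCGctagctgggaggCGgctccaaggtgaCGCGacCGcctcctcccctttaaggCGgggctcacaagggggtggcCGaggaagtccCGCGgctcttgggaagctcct
Vps4a (chr8:107031065-107031156, plus strand): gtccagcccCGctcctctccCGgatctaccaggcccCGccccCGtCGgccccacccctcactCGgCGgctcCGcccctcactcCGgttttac
C1qtnf12 (chr4:155962168-155962317, plus strand): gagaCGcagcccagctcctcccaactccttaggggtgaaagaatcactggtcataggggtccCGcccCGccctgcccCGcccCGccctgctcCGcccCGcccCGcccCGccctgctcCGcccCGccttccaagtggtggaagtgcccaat
Rap1gds1 (chr3:139075413-139075562, minus strand): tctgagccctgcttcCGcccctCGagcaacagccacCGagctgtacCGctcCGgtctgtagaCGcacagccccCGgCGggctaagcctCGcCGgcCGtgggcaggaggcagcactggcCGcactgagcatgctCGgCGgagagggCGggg
Dclk2 (chr3:86920853-86921002, minus strand): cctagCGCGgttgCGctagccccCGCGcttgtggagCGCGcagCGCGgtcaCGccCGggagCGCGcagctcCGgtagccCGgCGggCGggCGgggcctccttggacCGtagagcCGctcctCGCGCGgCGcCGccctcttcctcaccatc
Cenpf (chr1:189688114-189688263, minus strand): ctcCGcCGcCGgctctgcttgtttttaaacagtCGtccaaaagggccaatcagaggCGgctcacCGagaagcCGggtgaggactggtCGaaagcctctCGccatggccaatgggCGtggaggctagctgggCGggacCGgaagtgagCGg
Cdkn3 (chr14:46760389-46760538, plus strand): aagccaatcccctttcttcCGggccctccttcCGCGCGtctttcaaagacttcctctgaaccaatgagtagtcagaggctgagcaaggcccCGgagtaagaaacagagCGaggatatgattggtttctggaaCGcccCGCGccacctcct
The Dclk2 stretch held 25 CpGs and the upstream Hmgn2 stretch 6, the most and the fewest of the 10. The SP/KLF motif GGGCGG, counted on both strands, occurred 9 times in the C1qtnf12 stretch and 6 times in that of Prex1. The NFY motif CCAAT occurred 3 times in the Cdkn3 stretch and 2 times each in those of Cenpf and Prex1.

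The members carried sequence features of CpG islands that the rule did not use. The median ratio of observed to expected CpG was 0.807 in members, 0.469 in GC-poor promoters and 0.638 in GC-rich regions away from TSSs. The median GC content of members was 65.3%. The SP/KLF motif was found in 86.3% of the windows of 250 bp on either side of the best summit of members, in 36.8% of those of GC-poor promoters, in 71.1% of GC-rich regions away and in 15.9% of all kept regions. Motifs of NRF1 (GCATGCGC, 5.02% of members and 1.11% of all regions), ETS factors (CCGGAAGT, 6.61% and 1.2%), YY1 (AAGATGGC, 5.13% and 2.81%) and the cAMP response element (TGACGTCA, 2.83% and 0.93%) were also more frequent in members than in all regions. The E-box CACGTG was found in 13.0% of members and 7.39% of all regions. The TATA box (TATAAA) was found in 4.24% of members and 25.9% of all regions, and the AP-1 motif (TGACTCA or TGAGTCA) in 4.18% and 28.2%. CCAAT stood in 39.0% of members and 49.4% of all regions. GC-rich regions away from TSSs had shares near those of members for TATAAA (4.31%) and the E-box (13.1%). They had lower shares than members for NRF1 (2.46%), ETS factors (2.16%) and YY1 (1.95%). GC-poor promoters also lay above all regions for NRF1 (2.73%), ETS factors (4.12%), YY1 (3.76%) and the cAMP response element (1.95%). Both strands were searched and matches of different motifs were allowed to overlap. Motif shares move with base composition, so they are descriptions.

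The members lay close to start sites. The best summit was a median of 116 bp from the nearest protein-coding TSS, against 395 bp in GC-poor promoters, and it was within 100 bp of it in 46.0% of members and 26.1% of GC-poor promoters. It lay upstream in 51.0% of members. Members belonged to 8413 of the 20780 protein-coding genes on these chromosomes (40.5%), another 5867 genes had a GC-poor promoter region only, and 6500 had none. A member served more than 1 gene in 926 cases, and 877 of these held start sites on both strands. These divergent promoters had a median height of 14.1 in WT and 13.5 in DKO against 10.01 and 9.78 for the other members, and a median width of 780 bp against 606 bp.

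Depth and identity of the libraries were checked first. Each list held between 299433 and 299620 summits, close to the 300000 the authors kept. The lowest listed −log10 p was 3.54 to 5.63, so the lists end at different heights. The commonest background level was 2.41 to 2.51 in WT and 2.05 to 2.58 in DKO, with DKO replicate 3 lowest. Read totals were not used here. Of 11 preadipocyte and fibroblast markers, 10 had a listed promoter peak in all 6 libraries, and Dlk1 had one in 5. Promoter peaks of the adipocyte genes Adipoq, Plin1, Lep and Cidec, the leukocyte genes Ptprc and Cd3e and the endothelial gene Emcn were listed in no library. Of the 5 immune markers 1 was listed in all libraries, and their summed height was 4.79 to 5.73 in WT and 9.06 to 15.6 in DKO, where Itgam was listed in 3 libraries and Adgre1 in 2. Of 3 mural markers 2 were listed in all libraries, with summed heights of 30.9 to 40.1 in WT and 23.7 to 31.2 in DKO. Preadipocyte markers summed to 69.6 to 84.7 in WT and 62.2 to 73.8 in DKO. The part of these marker differences in the results was not tested, and fewer cells of a type and less open DNA per cell cannot be told apart.

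Both targeted genes have members. Hmgn2 had 2 on chromosome 4 (mm10, minus strand). The upstream one, at 133967603 to 133968415, had its summit 241 bp upstream of the nearest TSS and in an intron of a longer transcript. Its heights were 7.89, 7.53 and 9.45 in WT, and no DKO library listed a peak. The intronic one, at 133967140 to 133967359, had heights of 7.28, 5.79 and 7.39 in WT and likewise no peak in DKO. The Hmgn1 member (chromosome 16, minus strand, 96127510 to 96128494) was listed in all libraries, with heights of 12.6, 13.9 and 20.1 in WT and 14.9, 16.3 and 14.4 in DKO. Hmgn2 thus separated the genotypes and the Hmgn1 member did not. Whether the Hmgn1 summit lies in the deleted part is not given in the sources used here, so it does not check the genotype. The same is not given for the Hmgn2 summits. The paper reports that the deleted sequences are missing from the DNA of the knockout. Whether this accounts for the missing Hmgn2 peaks was not tested.

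Members were tall and often listed in every library. A peak was listed in all 6 libraries for 7468 members (76.6%), against 65.2% of GC-poor promoters, 64.96% of GC-rich regions away and 55.7% of all kept regions. Over these 7468 members the mean height over libraries ran from 2.34 to 34.4, with a median of 10.3 and quartiles of 6.22 and 15.3. The tallest was at Cenpf, which encodes a kinetochore protein of dividing cells, with heights of 34.4, 31.3 and 39.3 in WT and 35.3, 34.9 and 31.4 in DKO. Snrnp25, of the minor spliceosome, had 32.9, 31.9 and 38.2 in WT and 31.5, 35.97 and 33.8 in DKO. Cdkn3, a phosphatase of the cell cycle, had 30.9, 28.1 and 37.4 in WT and 31.7, 30.7 and 30.9 in DKO. The groups overlapped at these genes. Cyth2, an exchange factor for ARF GTPases, and Aplp2, related to the amyloid precursor, completed the 5 tallest at mean heights of 32.8 and 31.7.

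The main comparison asked whether the height of members differed between WT and DKO cells. Heights were put on a log2 scale and quantile-normalized, which gives every library the same distribution over all kept regions. A region without a listed peak took the lowest listed height of that library. The median normalized height of the members was 2.80, 2.92 and 2.79 in WT and 2.99, 3.02 and 3.07 in DKO. Each DKO library lay above each WT library, with a difference of 0.19 on the log2 scale (2.84 ± 0.08 against 3.03 ± 0.04, SD, n = 3 each, two-sided exact permutation p = 0.10, the smallest that 3 against 3 allows). The sign turned without scaling, where the difference of the log2 medians was -0.01. Over members listed in all libraries, median unscaled heights were 10.1, 9.39 and 11.6 in WT and 9.96, 10.5 and 9.78 in DKO, which overlap. The median change per region was 0.14 over members and 0.01 over all regions with scaling, and -0.02 and -0.14 without it. On both scales members stood higher in DKO relative to the median of all regions.

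**Figure D1:**
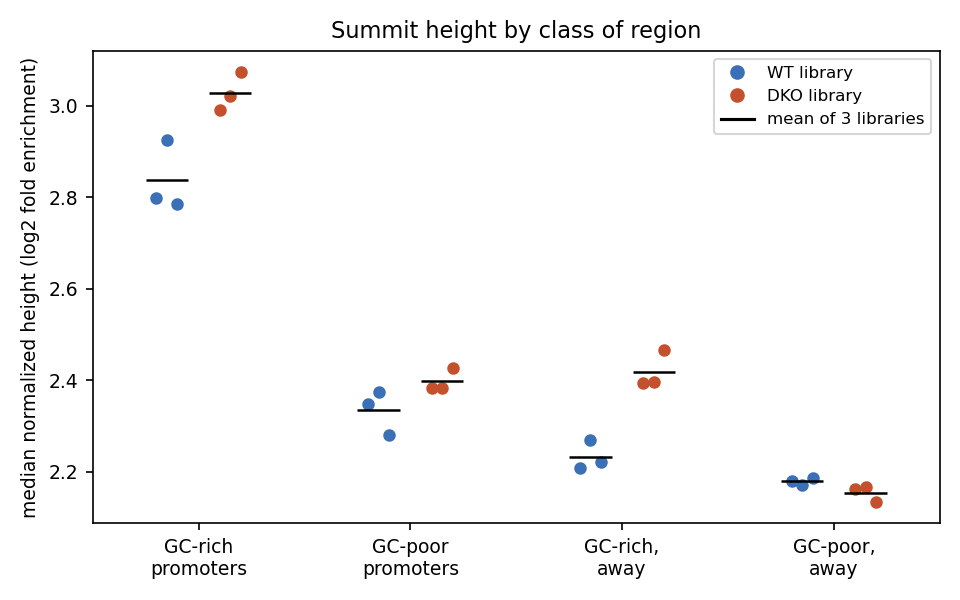
Median normalized height (log2 fold enrichment, vertical axis) of GC-rich promoters and the other classes of region, with a point for each WT and DKO library and a line at the mean of 3. The DKO points of GC-rich promoters (2.99 to 3.07) lie above the WT points (2.79 to 2.92), and GC-rich regions away from TSSs show a like gap (2.39 to 2.47 against 2.21 to 2.27).

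The members were then set against the 2 most similar classes. Relative to GC-poor promoters, the members' median was higher by 0.45, 0.55 and 0.51 in WT and by 0.61, 0.64 and 0.65 in DKO. The groups did not overlap, and the gap was 0.13 wider in DKO (exact permutation p = 0.10). It was 0.11 wider without scaling. Relative to GC-rich regions away from TSSs, the members' median was higher by 0.59, 0.65 and 0.56 in WT and by 0.60, 0.63 and 0.61 in DKO. These groups overlapped, and the difference of 0.0067 was under the SD of 0.05 among WT libraries (exact permutation p = 0.80). Its sign turned when WT replicate 3 or DKO replicate 2 was left out (-0.0047 and -0.0035).

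The change was larger at higher GC content, in promoters and elsewhere. Among promoter regions the median change was -0.05 at a GC content under 40%, 0.06 at 55 to 60%, 0.09 at 60 to 65%, 0.16 at 65 to 70%, 0.26 at 70 to 75% and 0.25 above that. Away from TSSs it was -0.16 under 40%, 0.08 at 55 to 60%, 0.12 at 60 to 65%, 0.22 at 65 to 70%, 0.37 at 70 to 75% (138 regions) and 0.18 above that (26 regions). At 70 to 75% the 1542 members had library medians of 2.27, 2.45 and 2.31 in WT and 2.54, 2.61 and 2.67 in DKO, which do not overlap. Without scaling the members' median change was -0.06 at 60 to 65% and 0.09 at 70 to 75%. Across all kept regions, Pearson's r of GC content with normalized height was 0.08 to 0.12 in the WT libraries and 0.19 to 0.21 in the DKO libraries, a description over 174449 regions that share their libraries. Within members it was -0.26 to -0.24 in WT and -0.22 to -0.19 in DKO, so the most GC-rich members were the lower ones in every library. Base composition moved with the result, and its part in it was not tested.

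**Figure D2:**
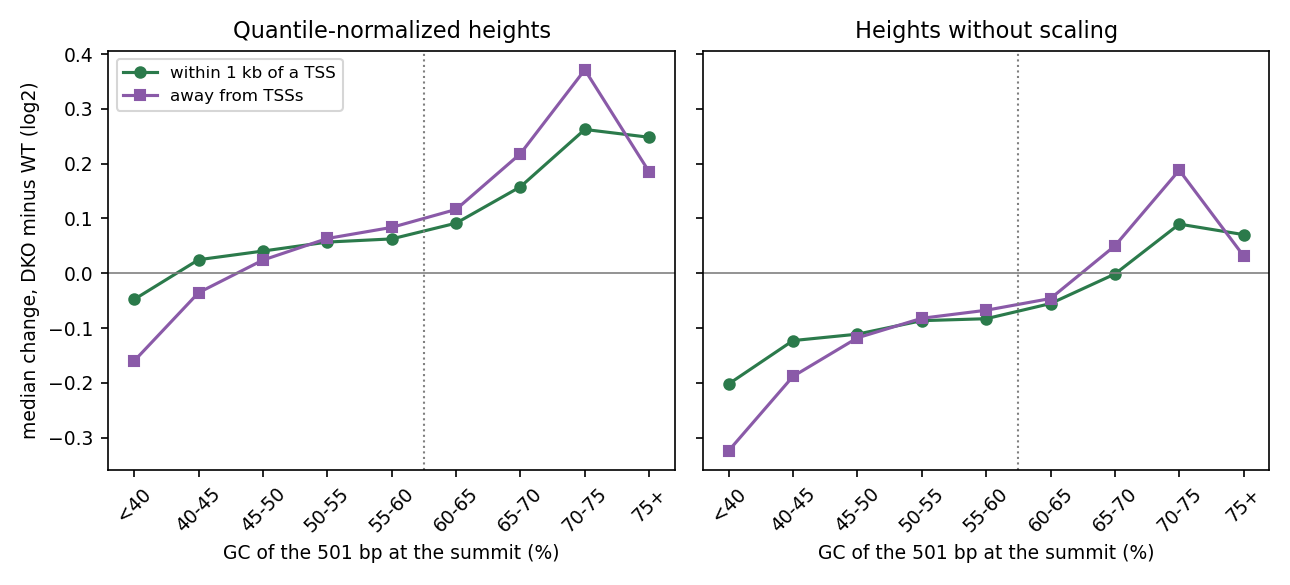
Median change in height (DKO minus WT, log2, vertical axis) by GC content within 250 bp of the summit (percent, horizontal axis) for regions within 1 kb of a TSS and away from TSSs, with quantile normalization (left) and without scaling (right). Both lines are higher at higher GC content up to 75% on both scales, at promoters from -0.05 to 0.26 with normalization, and the dotted line marks the limit of 60% for members.

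The shift was spread over the members. The log2 change was above 0 in 7177 members (73.6%), with quartiles of -0.01 and 0.33, against 51.5% of all regions. Its median lay above 0 on 19 of 19 chromosomes, between 0.10 and 0.17. By mean height over all libraries, the median change was 0.31 in the lowest of 4 equal groups, where 12.7% were listed in every library, then 0.20, 0.15 and 0.06 in the tallest group. Over the members listed in every library it was 0.15, 0.18, 0.15 and 0.06. Median GC content was 66.5% in the lowest group and 63.9% in the tallest. Members with the summit at or downstream of the TSS had a median change of 0.19 and those with an upstream summit 0.10. It was 0.08 with the ETS motif and 0.14 without it, 0.10 with CCAAT and 0.16 without it, and 0.14 with the SP/KLF motif and 0.15 without it. Members with the ETS motif were also taller, at a median height of 14.8 in WT against 9.96 without it. These values are under the scaling above, without which the median over all members lies below 0.

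Normalized heights did not overlap between the genotypes in 1701 members with DKO higher (17.4%) and in 249 with DKO lower (2.55%), against 8.55% and 7.52% of all kept regions. In GC-rich regions away from TSSs the shares were 16.7% and 2.56%. Without scaling 583 members (5.98%) were higher and 670 (6.87%) lower, against 3.22% and 13.5% of all regions, whose median change was then -0.14, while that of the members was -0.02.

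Single members were tested with limma across all kept regions. Of these, 0.0453% passed an adjusted p of 0.05 as lower and 0.0287% as higher, and among the 9750 members 1 passed in each direction. In what follows, values in parentheses are log2 changes of normalized height, DKO minus WT. The member called lower was the upstream region of the targeted gene Hmgn2 (-2.33 ± 0.30, SE, limma adjusted p = 0.031). The one called higher was at Tescl, a tescalcin-like gene (chromosome 7, 24333282 to 24333903, summit in a coding exon 381 bp downstream of the TSS). It had no listed peak in WT and heights of 7.04, 8.79 and 6.23 in DKO (2.34 ± 0.30, SE, limma adjusted p = 0.032). None of the 6 limma fits that leave out 1 library called a member, with an adjusted p of 0.19 to 0.26 at Hmgn2 and log2 changes of -2.37 to -2.29. At an unadjusted p under 0.05, 114 members (1.17%) were lower and 1158 (11.9%) higher, against 6.03% and 5.62% of all regions. Both called members were listed in 1 genotype alone and so entered the fit only through the group in which they were high. Since a region without a peak takes the lowest listed height, the changes at Hmgn2 and Tescl measure height above the end of a list and are no fold change of accessibility.

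The 5 members with the smallest p in each direction follow, of which only the above pair was called. The lower ones included the intronic Hmgn2 member (-2.05 ± 0.32, SE, limma adjusted p = 0.067) and an intronic region of Coq2, an enzyme of coenzyme Q synthesis. The Coq2 region had heights of 7.72, 6.03 and 6.76 in WT and no listed peak in DKO (-2.06 ± 0.33, SE, limma adjusted p = 0.069). Prex1, an exchange factor for the GTPase Rac, had 15.5, 16.8 and 17.02 in WT and 7.85, 9.44 and 9.26 in DKO (-0.72 ± 0.14, SE, limma adjusted p = 0.12). Mctp2, a membrane protein with C2 domains, had 11.6, 9.78 and 13.3 in WT and 5.34, 6.29 and 6.43 in DKO (-0.74 ± 0.14, SE, limma adjusted p = 0.12). In each of these the DKO libraries lay below all WT libraries. The Coq2 and intronic Hmgn2 members were listed in WT alone, so they passed the filter through WT only, their DKO values are the ends of the lists, and their changes are no fold change of accessibility either.

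On the higher side stood Vps4a, the ATPase that takes ESCRT complexes apart, with heights of 9.51, 11.4 and 11.9 in WT and 17.95, 18.8 and 16.5 in DKO (0.86 ± 0.13, SE, limma adjusted p = 0.06). C1qtnf12, a secreted adipokine, had 5.35, 5.48 and 7.57 in WT and 9.71, 12.8 and 8.76 in DKO (0.95 ± 0.16, SE, limma adjusted p = 0.079). All WT libraries lay below all DKO libraries at both. Rap1gds1, an exchange factor for small GTPases, had 7.50, 8.24 and 9.59 in WT and 12.5, 12.3 and 14.3 in DKO (0.81 ± 0.14, SE, limma adjusted p = 0.099). Dclk2, a kinase that binds microtubules, had 4.38, 4.27 and 5.28 in WT and 8.06, 7.65 and 8.81 in DKO (0.99 ± 0.18, SE, limma adjusted p = 0.1). The groups were likewise separate.

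**Figure D3:**
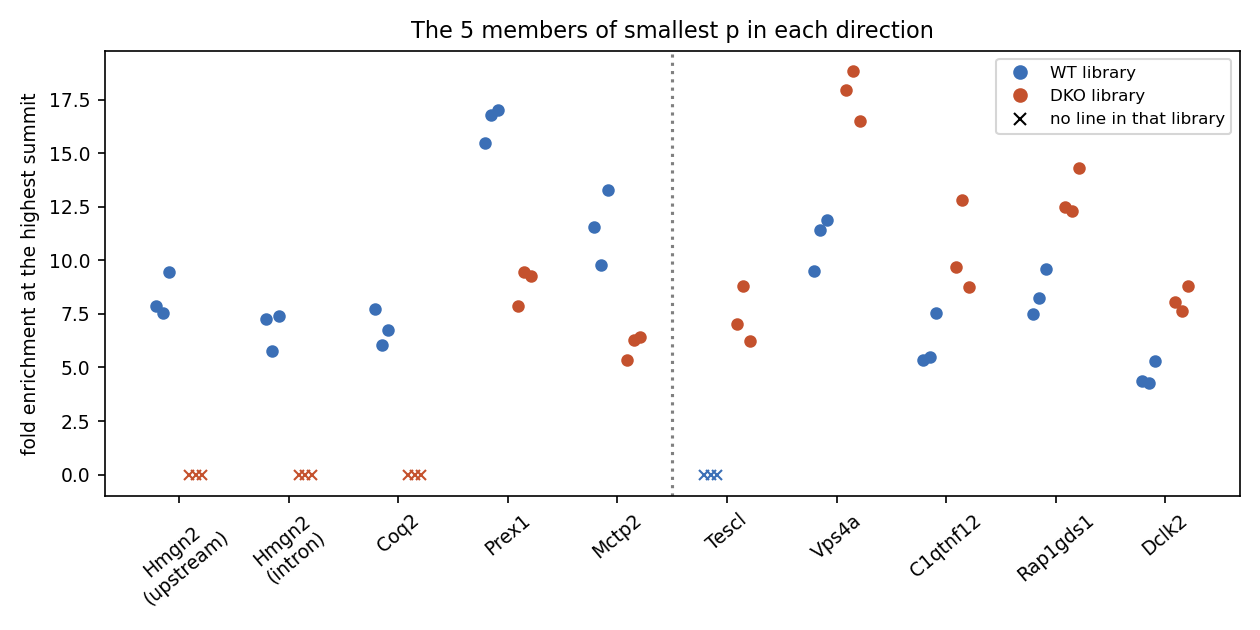
Fold enrichment at the highest summit (vertical axis) in each WT and DKO library for the 5 members with the smallest p in each direction, lower in DKO left of the dotted line and higher right of it, with a cross at 0 where the library lists no peak. The Hmgn2 and Coq2 regions have no DKO peak and Tescl no WT peak, while the Prex1 points lie at 15.5 to 17.02 in WT and 7.85 to 9.44 in DKO.

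Over the 97204 regions listed in all 6 libraries, where no missing peak enters the fit, more members were called and most of them were higher in DKO. Of all these regions 0.642% were called lower and 0.293% higher. Among the 7468 members 3 were called lower (0.0402%) and 47 higher (0.629%), close to the 0.617% called higher among GC-rich regions away from TSSs. The 3 lower members were those of Prex1, Mctp2 and Polr2m, a factor bound to RNA polymerase II. Polr2m had heights of 12.6, 10.7 and 18.8 in WT and 6.65, 9.48 and 6.63 in DKO (-0.70 ± 0.17, SE, limma adjusted p = 0.035). The 47 higher members had log2 changes of 0.49 to 1.22, a median of 0.71 and a median GC content of 71.5%, and all 47 had the same sign without scaling.

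Genes at these 47 members, chosen here after their values were seen, had varied roles. Vps4a was the one with the smallest adjusted p (0.86 ± 0.14, SE, limma adjusted p = 0.0006). Trpc4ap, an adaptor of a ubiquitin ligase, had heights of 2.97, 2.99 and 3.15 in WT and 5.76, 5.44 and 5.66 in DKO. Ankrd17, a large ankyrin repeat protein, had 5.44, 6.10 and 5.78 in WT and 9.46, 9.60 and 11.6 in DKO. The WT and DKO heights were apart at both. Thrb, a receptor for thyroid hormone, had 5.92, 8.89 and 8.27 in WT and 11.5, 10.7 and 15.8 in DKO. Pik3r1, the regulatory subunit of PI3-kinase in insulin signalling, had 7.85, 9.60 and 8.20 in WT and 12.4, 11.8 and 12.7 in DKO. These were also apart, as were the chromatin genes that follow. Setd2, a histone methyltransferase of transcribed genes, had 10.8, 12.2 and 14.4 in WT and 15.3, 18.4 and 16.1 in DKO. Smarca2, an ATPase of SWI/SNF remodelling complexes, had 11.4, 10.7 and 11.4 in WT and 15.01, 15.1 and 14.6 in DKO. The largest change of the 47 was at Tmem131, a membrane protein of collagen secretion (1.22 ± 0.26, SE, limma adjusted p = 0.016). WT replicate 2 stood near DKO there, with 4.66, 11.6 and 4.35 in WT and 11.8, 13.1 and 14.3 in DKO.

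Gene classes differed in the height of their members, given here as medians over members listed in every library. Members at genes of several basic cell functions were tall. Median heights in WT and DKO were 17.9 and 17.1 for DNA replication genes (19 members), 16.7 and 15.3 for oxidative phosphorylation (26 of 30 members), 14.5 and 12.9 for mitochondrial ribosomal proteins (32 members) and 14.0 and 14.4 for cytosolic ribosomal proteins (31 of 39 members). Histone genes stood lower, at 9.73 and 8.03 (11 of 13 members), against 10.4 and 10.1 over all members. Members at developmental regulators were low. The medians were 5.81 and 6.05 for Hox genes (13 of 25 members), 6.56 and 6.95 for other developmental transcription factors (61 of 105 members) and 4.94 and 5.79 for Wnt ligands (5 of 7 members). The median width was 834 bp at oxidative phosphorylation genes and 345 bp at Hox genes, against 626 bp over all members.

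The share of genes with a GC-rich promoter peak also varied by class. It was 83.3% of 30 Polycomb and Trithorax genes, 61.5% of 39 Hox genes, 41.0% of 78 mitochondrial ribosomal protein genes, 29.9% of 358 Zfp zinc finger genes, 13.9% of 79 histone genes and 1 of 1453 olfactory and vomeronasal receptor genes.

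The median change of the classes lay around that of all members. It was 0.03 at RNA polymerase subunits and spliceosome genes, 0.05 at Mediator and oxidative phosphorylation genes, 0.12 at proteasome and Zfp genes, 0.21 at Polycomb and Trithorax genes, 0.23 at Hox genes and 0.45 at Wnt ligands, against 0.14 over all members and 0.01 over all regions. These medians include members whose missing peaks took the lowest listed height. Over members listed in every library they were 0.02 at RNA polymerase subunits, 0.03 at spliceosome genes, 0.05 at Mediator genes, 0.01 at oxidative phosphorylation genes, 0.13 at proteasome and 0.11 at Zfp genes, 0.06 at Polycomb and Trithorax genes (25 of 40 members), 0.17 at Hox genes and 0.27 at Wnt ligands, against 0.11 over all such members. Polycomb and Trithorax genes thus lay above the median of all members by the first measure and below it by the second. Without scaling the median over all members of a class was -0.11 at RNA polymerase subunits, -0.10 at oxidative phosphorylation genes, -0.03 at cytosolic ribosomal proteins, 0.04 at Hox genes and 0.18 at Wnt ligands. Across all 24 lists the fit over all regions called only Hmgn2, and the fit over regions listed in every library called Polr2m lower and Rps10 and Zfp553 higher. Rps10, of the small ribosomal subunit, had heights of 8.91, 12.6 and 11.3 in WT and 14.7, 15.2 and 16.6 in DKO. Zfp553, a zinc finger protein, had 4.11, 6.17 and 8.26 in WT and 8.64, 10.7 and 9.66 in DKO. All DKO libraries lay above WT at both.

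Other members with the smallest p of their list were not called. Psma7 of the proteasome had 5.42, 5.63 and 7.37 in WT and 7.99, 7.90 and 9.48 in DKO (0.65 ± 0.17, SE, limma adjusted p = 0.17). Prpf39, a splicing factor of the U1 snRNP, had 3.998, 4.32 and 4.81 in WT and 6.12, 7.87 and 6.84 in DKO (0.82 ± 0.20, SE, limma adjusted p = 0.16). Both were higher in each DKO library. Foxf1, a forkhead factor of mesenchyme, had 6.28, 6.91 and 9.68 in WT and 9.35, 10.6 and 11.7 in DKO (0.67 ± 0.16, SE, limma adjusted p = 0.16). Snrpb2 of the U2 snRNP had 16.7, 13.9 and 17.6 in WT and 13.4, 10.8 and 9.18 in DKO (-0.38 ± 0.13, SE, limma adjusted p = 0.26). H2afy2, a macroH2A histone, had 10.3, 8.49 and 10.4 in WT and 5.21, 6.90 and 5.87 in DKO (-0.51 ± 0.16, SE, limma adjusted p = 0.21). The DKO libraries lay below WT at Snrpb2 and H2afy2.

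**Figure D4:**
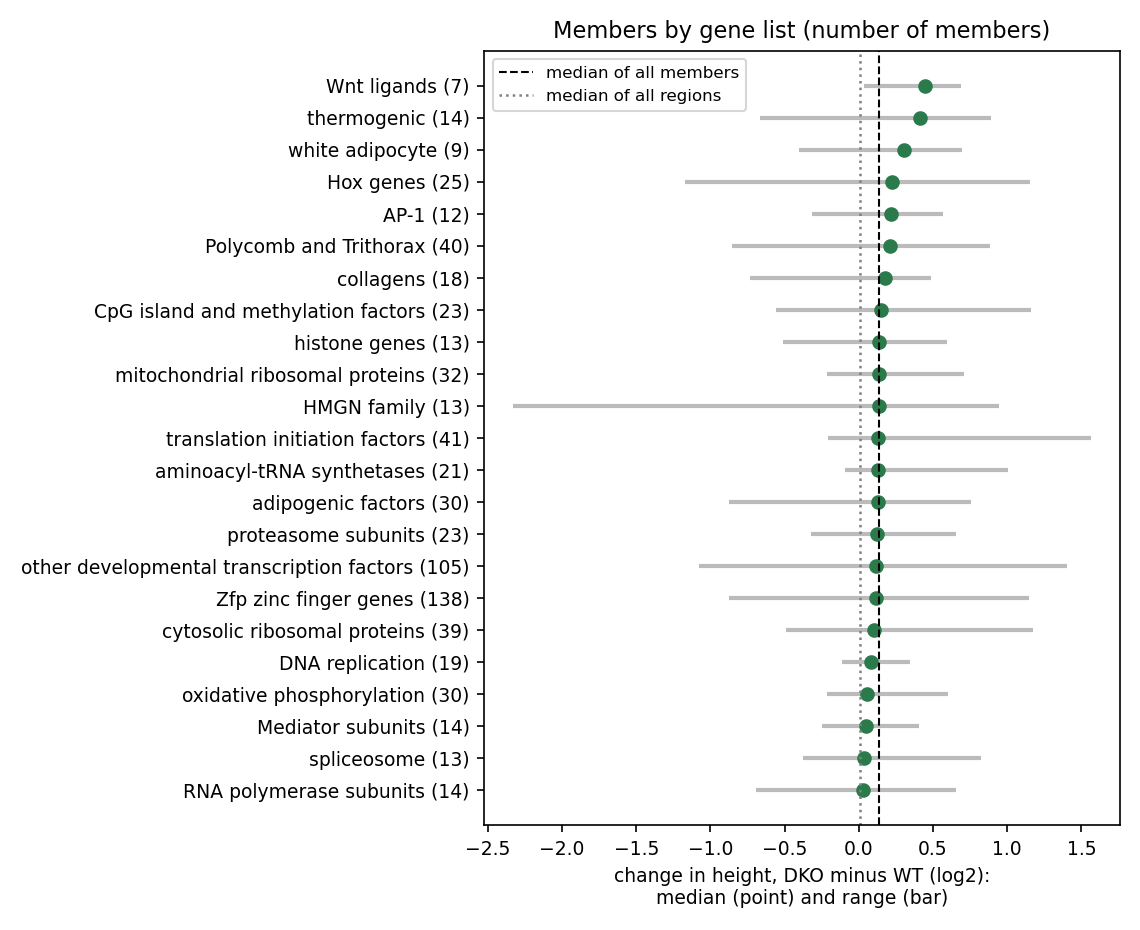
Change in normalized height (DKO minus WT, log2, horizontal axis) for members of each gene list with at least 5 members, missing peaks at the lowest listed height, with the median as a point, the range as a bar and the number of members in parentheses. The list medians run from 0.03 at RNA polymerase subunits to 0.45 at Wnt ligands, around the median of all members (0.14, dashed line), and the dotted line marks all regions (0.01).

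AP-1 factors, which bind the motif TGACTCA as dimers of FOS and JUN proteins, had 12 members at 7 genes. None was called, and 10 had a change above 0 (median 0.21, 0.09 without scaling, and 0.20 over the 9 members listed in every library). The TSS member of Jun had heights of 8.81, 9.33 and 9.49 in WT and 11.8, 10.9 and 10.7 in DKO (0.46 ± 0.14, SE, limma adjusted p = 0.21), with every DKO library above WT. The main Fosl2 member had 10.3, 11.2 and 9.85 in WT and 10.99, 10.3 and 9.96 in DKO, which overlap. A Fosb member upstream of the TSS had 4.80, 5.03 and 5.19 in WT and 4.14, 3.70 and 3.09 in DKO (-0.31 ± 0.26, SE, limma adjusted p = 0.65), lower in each DKO library before scaling. Fosl1 had 8.90, 8.71 and 10.7 in WT and 7.66, 8.86 and 6.70 in DKO at its taller member. Fos had 4.61, 4.68 and 4.72 in WT and 4.63, 5.07 and 4.78 in DKO, nearly the same height in all libraries.

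Adipogenic factors, which drive the conversion of preadipocytes to fat cells, had 30 members at 18 of 20 genes. None was called, and the median change was 0.13 (-0.07 without scaling, and 0.09 over the 22 members listed in every library). Ppara, a nuclear receptor of fatty acid oxidation, had a member with 16.5, 13.5 and 17.7 in WT and 10.4, 11.4 and 10.6 in DKO (-0.39 ± 0.10, SE, limma adjusted p = 0.17). All DKO libraries lay below WT there, while a neighbouring Ppara member had 4.07, 4.11 and 4.43 in WT and 3.25, 4.93 and 3.23 in DKO. Pparg, the master regulator of fat cells, had 4.92, 3.98 and 4.11 in WT and 5.03, 4.53 and 4.59 in DKO. Cebpa, a partner of Pparg, had 10.5, 13.4 and 12.8 in WT and 13.6, 14.3 and 14.05 in DKO (0.37 ± 0.15, SE, limma adjusted p = 0.38). The Pparg groups overlapped, and the unscaled Cebpa heights were higher in all DKO libraries than in WT by a small margin. The tallest members of the list were at Stat5a, a signal transducer, at a mean height of 16.1, and at Klf5, a zinc finger factor, at 15.2. A Zfp467 member was listed in WT replicates 1 and 2 alone, at 4.70 and 3.10.

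Thermogenic genes, active in brown and beige fat, had 14 members at 8 of 18 genes, and 8 of the 14 lacked a peak in at least 1 library. None was called (median change 0.41, 0.22 without scaling, and 0.14 over the 6 members listed in every library). Prdm16, a regulator of brown fat identity, had 5.66, 6.65 and 7.24 in WT and 4.23, 6.93 and 4.97 in DKO at its tallest member. Esrra, a nuclear receptor of mitochondrial genes, had 19.05, 16.2 and 20.1 in WT and 15.4, 15.1 and 13.5 in DKO (-0.19 ± 0.09, SE, limma adjusted p = 0.45). The Prdm16 heights overlapped and those of Esrra were lower in every DKO library before scaling. The 2 members at Zic1, a zinc finger factor, were listed in DKO replicates 2 and 3 alone, at 3.40 and 3.93 for one and 3.40 and 3.28 for the other. White adipocyte genes had 9 members at 6 of 18 genes, none called, with a median change of 0.30 (0.11 without scaling, and 0.30 over the 5 members listed in every library). Lpl, a lipoprotein lipase, had 3.25, 2.58 and 3.77 in WT and 3.94, 6.24 and 3.63 in DKO at its tallest member. Pnpla2, a triglyceride lipase, had 10.8, 12.9 and 15.9 in WT and 13.4, 12.6 and 13.1 in DKO, which overlap.

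The high mobility group list, with Hmgn1 and Hmgn2, had 13 members at 6 of 7 genes. Changes ran from -2.33 to 0.95, and 11 were above 0 (median 0.14, 0.01 without scaling). Normalized heights did not overlap in 3 with DKO higher and 2 with DKO lower, against 8.55% and 7.52% of all kept regions. Only part of the other genes is given here. The main Hmgb1 member had 27.00, 22.9 and 28.1 in WT and 26.4, 27.2 and 22.1 in DKO, and that of Hmgb2 had 26.2, 24.6 and 30.00 in WT and 29.02, 24.9 and 27.6 in DKO. These were among the taller members of the series, and the groups overlapped. Hmga1 had 8.22, 10.03 and 12.1 in WT and 13.1, 10.5 and 11.8 in DKO at its taller member (0.41 ± 0.16, SE, limma adjusted p = 0.34).

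Width was compared next, as the bases that a library's intervals cover in a member. Over the 7468 members listed in all libraries the median width was 576, 616 and 649 bp in WT and 640, 648 and 625 bp in DKO. The groups overlapped, and the difference of 24.0 bp was within the spread of the WT libraries (614 ± 36.6 against 638 ± 11.7 bp, SD, n = 3 each, exact permutation p = 0.50). It was 6.67 bp without WT replicate 1 and 42.2 bp without WT replicate 3 (exact permutation p = 0.70 and 0.10). Over members listed in at least 1 library of each genotype the difference was 10.7 bp (exact permutation p = 0.60). GC-poor promoters were narrower, at 471 to 523 bp in WT and 460 to 491 bp in DKO. The limma fit of log2 width called 0 members narrower and 0 wider, and likewise 0% of all 97204 regions in each direction. At an unadjusted p under 0.05, 141 members (1.89%) were narrower and 563 (7.54%) wider, against 4.0% and 3.65% of all regions, and the smallest adjusted p was 0.19. The median log2 change of width was 0.07 over members and 0.02 over all regions.

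The widest member was that of Ccn2, a matricellular growth factor (chromosome 10, 24595236 to 24598146). It covered 2485, 2709 and 2836 bp in WT and 2254, 2480 and 2321 bp in DKO. It held 17, 17 and 17 summits in the WT libraries and 12, 12 and 11 in the DKO libraries. All DKO libraries were narrower and held fewer summits there, while its heights were 4.95, 5.17 and 5.09 in WT and 5.92, 6.50 and 5.64 in DKO. Gab1, an adaptor of receptor kinases, followed with 2039, 2088 and 2102 bp in WT and 1930, 1982 and 1783 bp in DKO. Kmt2e, a Trithorax-related protein, Ldha, a lactate dehydrogenase, and Zkscan17, a zinc finger protein, completed the 5 widest, with mean widths of 1760, 1691 and 1676 bp. Cinp, which shares its member with Tecpr2, was among the 5 with most summits, at 11, 12 and 9 in WT and 11, 11 and 11 in DKO.

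Members held more summits than the compared classes. Only regions listed in all libraries were counted. The mean number per member was 3.18, 3.49 and 3.32 in WT and 3.53, 3.57 and 3.45 in DKO, against 2.79 to 2.85 and 2.81 to 2.92 in GC-poor promoters. WT replicate 2 lay within the DKO range, and the difference of 0.19 had an exact permutation p of 0.20. It was 0.11 without WT replicate 1 and 0.26 without WT replicate 2, where the genotypes no longer overlapped. It was 0.08 when only summits above the limit common to all lists were counted (2.92, 3.02 and 3.32 in WT and 3.22, 3.28 and 2.998 in DKO, exact permutation p = 0.80). Over members listed in at least 1 library of each genotype the difference was 0.12 (exact permutation p = 0.20). Of members listed in all libraries, 13.8% to 18.2% held a single summit in WT and 11.98% to 13.5% in DKO.

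**Figure D5:**
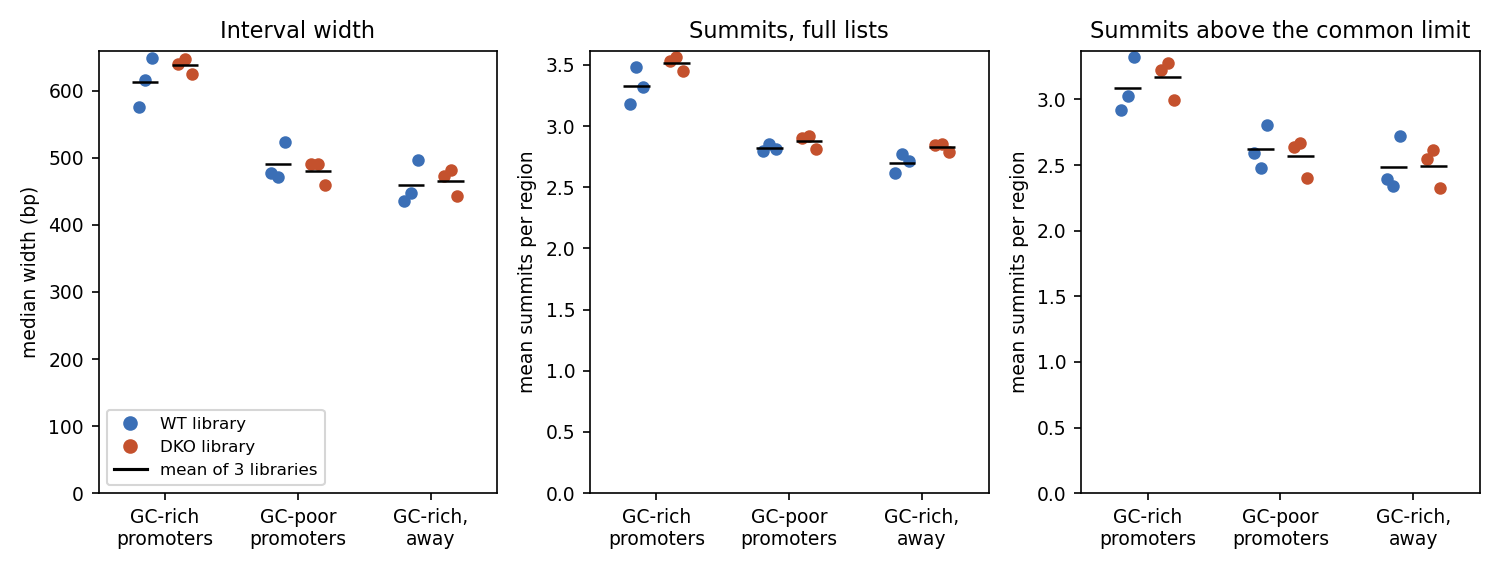
Median interval width (bp), mean summits per region in the full lists, and mean summits above the limit common to all lists (vertical axes, from 0) for GC-rich promoters, GC-poor promoters and GC-rich regions away from TSSs, with a point for each library and a line at the mean of 3. GC-rich promoters are the widest (576 to 649 bp) and hold most summits, and their WT and DKO points overlap in each panel. All values are over regions listed in all 6 libraries.

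The share of each list that fell in members was higher in DKO. Members took up 8.87%, 9.97% and 9.21% of the summits in WT and 10.1%, 10.2% and 10.4% in DKO. Among the 50000 best lines of each list the shares were 15.4%, 17.7% and 16.4% in WT and 18.5%, 18.9% and 19.2% in DKO (difference 2.38 percentage points, exact permutation p = 0.10). The groups did not overlap in either. A peak was listed in 87.3% to 89.5% of members in WT and in 91.6% to 93.2% in DKO. The shares of the 2 most similar classes were likewise higher in DKO. GC-poor promoters took up 9.77% to 10.2% of the summits in WT and 10.28% to 10.4% in DKO, and 15.95% to 16.3% and 16.7% to 16.9% of the 50000 best lines. GC-rich regions away from TSSs took up 1.34% to 1.44% and 1.51% to 1.56% of the summits. None of these pairs overlapped. The share of regions with a listed peak was also apart in GC-rich regions away from TSSs (81.5% to 84.2% and 86.7% to 88.4%), but overlapped in GC-poor promoters.

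Members listed in 1 genotype alone were few. All 3 WT libraries and no DKO library listed a peak in 27 members (0.277%), and all 3 DKO and no WT library in 66 (0.677%), against 1.28% and 1.19% of all kept regions. Such a region need not be closed where no peak is listed, since it may lie just below the end of that list. The 5 WT-only members with the highest mean −log10 p were the Hmgn2 pair and those of Coq2, Htr1b and Usp31. Htr1b, a serotonin receptor, had heights of 3.96, 3.71 and 4.71, and Usp31, a ubiquitin protease, had 3.22, 2.76 and 4.96. Onecut1, a developmental transcription factor, was listed in DKO alone at 6.77, 3.50 and 5.59, and Prmt3, an arginine methyltransferase, at 3.92, 4.64 and 5.57. These heights were low beside the median of 10.3 of members listed in every library. Rab31, a GTPase of vesicle traffic, had 3.05, 3.53 and 4.84 in DKO, and Fam76b, which shares its member with Cep57, had 2.31, 2.64 and 3.48.

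The limit of 60% GC cut through a continuous range. Just inside, at 60.1%, lay, among others, members of Ccdc110 and Noc3l, with log2 changes of -0.19 and -0.06. Just outside, at 59.9%, lay regions of Vwa1, Ltbr and Stoml1, with 0.26, 0.82 and -0.02.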

How the data were processed

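ATAC-seq was performed on 6 libraries of day 0 preadipocytes (3 WT, 3 DKO). According to the labels, processing notes and methods, the authors aligned reads to mm10 with Bowtie2 2.3.4.3, removed duplicate and mitochondrial reads and called peaks per library with MACS2. The processing notes also name cutadapt 1.18 and bcl2fastq 2.17. The deposited lists are named for a p of 0.01 and 300000 peaks, whereas the methods state default parameters, and the MACS2 version is not given in the sources used here. The deposited fold enrichment is a ratio of pileup to local background, and the deposited p and q are −log10 values, none scaled between libraries by the authors. TSSs and exons came from GENCODE M21 (basic set).

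Heights were quantile-normalized and fitted with limma 3.58.1 (R 4.3.3, eBayes with trend, Benjamini-Hochberg over all regions fitted, threshold 0.05), and log2 widths likewise. Single values of the libraries were set against each other by exact permutation of the genotype labels, two-sided. Both fits were tested on simulated data, where of 200 regions given a log2 change of 1 or 2 the height fit called 13.5% and 70.5% and the width fit 12% and 80%. Pileups solved from fold enrichment and p were whole for 100% of summits (within 0.05). A member was assigned to the gene of the nearest TSS. Named by rule were the targeted genes, the 5 members of smallest p in each direction (fewer than 3 were called), the 5 tallest, the 5 widest and the 5 with most summits, up to 5 listed in 1 genotype, the 2 of smallest p per gene list and the members of the AP-1, adipogenic, high mobility group, thermogenic and white adipocyte lists, of which the text gives a part. The members, gene lists and markers were chosen with earlier results of these data known. Alternatives covered scaling, the measure of height, the moderation, GC and TSS limits, the q filter, list limits, a replicate block and leaving out each library.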

Additional observations from a re-analysis of the deposited data

How the results depend on the processing

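Of 196 alternative values of 13 results, 130 kept the direction and stayed within the limits set for agreement, 56 moved and 10 reversed. Calls depended most on the fit. Members called lower and higher in height numbered 1 and 1 as reported, 3 and 2 with median centring, 0 and 0 with no scaling, 3 and 47 over regions listed in all 6 libraries, 1 and 2 with −log10 p as the height, 2 and 3 with summit pileup, 21 and 64 with eBayes without trend, 1 and 0 at a GC limit of 65% and 3 and 3 with a −log10 q over 5. With a replicate block they were 0 and 0, and correlations of same-numbered libraries (0.00578, -0.00744 and -0.00312) did not pair the samples. Leaving out each library gave 0 calls in each direction. The members' median height differed by -0.0125 with no scaling and by 0.168 to 0.235 with a library left out, against 0.192. Relative to GC-rich regions away from TSSs (0.0067) it was -0.0176 with median centring or no scaling, -0.0071 over regions listed in all libraries, -0.0164 with −log10 p, -0.0147 with pileup, -0.0157 at a GC limit of 65%, -0.0013 with a −log10 q over 5, 0.0442 at a GC limit of 55%, 0.0325 within 500 bp of a TSS, and -0.0047 to 0.0323 with a library left out, where it was -0.0035 without DKO replicate 2. Heights without overlap, 249 lower and 1701 higher, numbered 670 and 583 with no scaling, 416 lower at a GC limit of 55%, 100 and 1058 at 65%, and 441 to 614 and 2075 to 3277 with a library left out, where fewer libraries have to be apart. Members listed in WT only and DKO only, 27 and 66, numbered 10 in WT at a GC limit of 65%, 8 and 20 with a −log10 q over 5, 13 in WT among the 50000 best lines, and 39 to 59 and 113 to 167 with a library left out, by the same construction. Other causes were not tested. Peaks below the end of a list could not be compared.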
